A study of Homo sapiens with 10 samples.

Results

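Mitochondrial ribosomal protein genes were followed by SLAM-seq in 22RV1 cells, an established cell line of castration-resistant prostate cancer. The genes were taken as all protein-coding genes whose symbol starts with MRPL or MRPS followed by a digit. There were 78 of them among the 31015 genes with a counted interval, 49 named MRPL and 29 named MRPS. The 10 libraries formed 5 groups of 2 each. Control cells received no inhibitor that the labels name, and the other groups were kept for 4 h in 20 μM SRPIN340, in 50 μM Endovion, in THZ531, or in THZ531 with 50 μM Endovion. The THZ531 dose is 150 nM in the description of the data and 100 nM in the study's methods, and the difference was not settled here. SRPIN340 inhibits SRPK1, a kinase of splicing factors, Endovion was studied as another inhibitor of SRPK1, and THZ531 inhibits the transcription kinases CDK12 and CDK13. All groups were of the same unmodified line and were given 4-thiouridine for the last 10 min, so that newly made RNA carried T-to-C changes in its reads.

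The mitochondrial ribosome makes the membrane proteins of the respiratory chain that are encoded in mitochondrial DNA. Its RNA comes from the mitochondrial genome, but all of its proteins are encoded in the nucleus, made in the cytosol and imported. Proteins of the large subunit carry the prefix MRPL and those of the small subunit MRPS, although a few were later placed in the other subunit. Many have a counterpart in the bacterial ribosome, and the rest are particular to mitochondria.

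Libraries of the 3′ ends of RNA were sequenced, so each gene was counted at its 3′ interval, the stretch before the end of the transcript. Libraries held 35517462 to 53592904 mapped reads and 1011605 to 1576125 T>C reads on genes, a T>C read being one with a T-to-C change. Every library was labelled, so T>C reads from sequencing errors or sequence variants could not be told from newly made RNA. What is called nascent RNA below may hold such reads. The members took 0.543% to 0.640% of the T>C reads on genes and 0.624% to 0.754% of all reads. The prostate epithelial genes HOXB13, FOXA1, KRT8, KRT18 and EPCAM were at 45.6 CPM or more in every library, and KLK3 was at 2.63 to 8.09 CPM, CPM being reads scaled to the library's normalised total (TMM). Of the markers of other cell types, VWF had 0 reads, PTPRC, COL3A1, PECAM1 and CHGA had at most 8 reads in a library, and COL1A1 reached 3.51 CPM. Nothing in the labels says that replicates were separate cultures, so every p-value measures the spread between these libraries, which may be technical. In bulk RNA, fewer cells and less RNA per cell cannot be told apart.

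In control cells most members were well measured but not all. Total RNA, all reads of a gene whether labelled or not, had a median of 66.1 CPM over the 76 members tested, with an interquartile range of 39.4 to 124.7. MRPL24 was highest at 452.2 CPM. In all, 5 members failed the low-count filter for nascent RNA, the T>C reads, which left 73, and 76 passed it for total RNA. MRPS18B, a paralog of MRPS18A and MRPS18C, had 0 reads in all 10 libraries. In the listed interval that allows up to 0.0953 to 0.161 CPM of counted reads by library. MRPL23 and MRPL45 had at most 9 and 13 reads in a library. MRPS36, which is now counted as a part of the alpha-ketoglutarate dehydrogenase complex, had at most 16 reads. For these 4 genes the counts describe the listed 3′ intervals only, and whether other 3′ ends were used was not tested. The deposited counts hold 0 reads that map to several places. Whether such reads of these genes were lost was not tested, so the counts set no limit on expression. MRPL2 had a mean of 456 reads but only 8 T>C reads in control cells. Intervals of MRPL30, MRPL42, MRPL46, MRPS17, MRPS24 and MRPS28 were shared with another gene, so their reads cannot be assigned with certainty.

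The labelled share, the percentage of a gene's reads that were T>C reads, differed widely among members. Its median over the 73 members in control cells was 4.13%, against 5.19% over all genes tested. MRPL18 had the most T>C reads of any member in control cells with a mean of 550, followed by MRPL41 with 472.5 and MRPS35 with 414.5. MRPL39, MRPS31 and MRPS15 had the fewest, with means of 1.5, 4.5 and 7. The labelled share was highest in MRPL39 at 33.3%, which rests on 9 reads, in MRPS22 at 29.9% and in MRPL13 at 22.7%. It was lowest in MRPS15 at 0.575%, in MRPS2 at 1.29% and in MRPL12, a protein of the ribosomal stalk, at 1.29%. In 9 members it exceeded 10%.

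**Figure D1:**
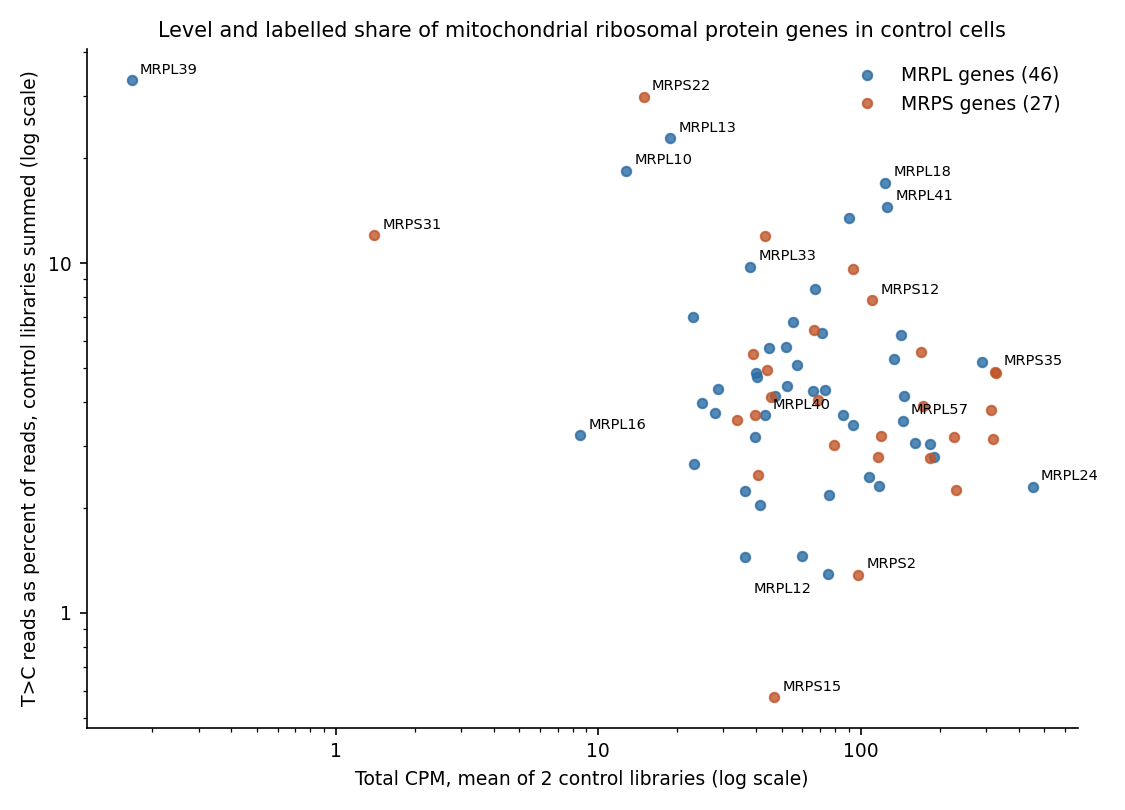
Control cells: each point is 1 of 73 members, with total CPM (mean of 2 libraries, log scale) on the horizontal axis and the labelled share in percent (log scale) on the vertical axis, blue for MRPL and red-brown for MRPS genes. Most members lie near the median share of 4.13%, while MRPL39, MRPS22 and MRPL13 lie at 33.3%, 29.9% and 22.7% with fewer reads than most.

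Nascent RNA of most members did not pass the test after any treatment. A gene was called where its Benjamini-Hochberg adjusted p, over the 9946 genes tested, was under 0.05 in the quasi-likelihood test of edgeR. With SRPIN340, 2 of 73 members rose and 0 fell (background over all genes 0.845% higher and 0.191% lower). With Endovion, 4 rose and 0 fell (2.04% and 0.623%). With THZ531, 5 rose and 1 fell (3.86% and 3.6%), and with THZ531 and Endovion 5 rose and 0 fell (4.61% and 3.49%). At an unadjusted p under 0.05 the lower members numbered 4, 5, 5 and 8 in that order, and DESeq2 called 0, 0, 1 and 0 of them. The members that rose were MRPL16, MRPL32, MRPL33, MRPL39 and MRPS22, of which only MRPL16 was called in all 4 comparisons and the others in 3 of them. The comparisons share their control libraries. The median log2 fold change of members was −0.14, −0.12, −0.09 and −0.14, against −0.01, −0.01, −0.02 and −0.01 over all genes. Changes were small in most: 56, 54, 55 and 50 of 73 members lay within 0.5 of 0 on the log2 scale.

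**Figure D2:**
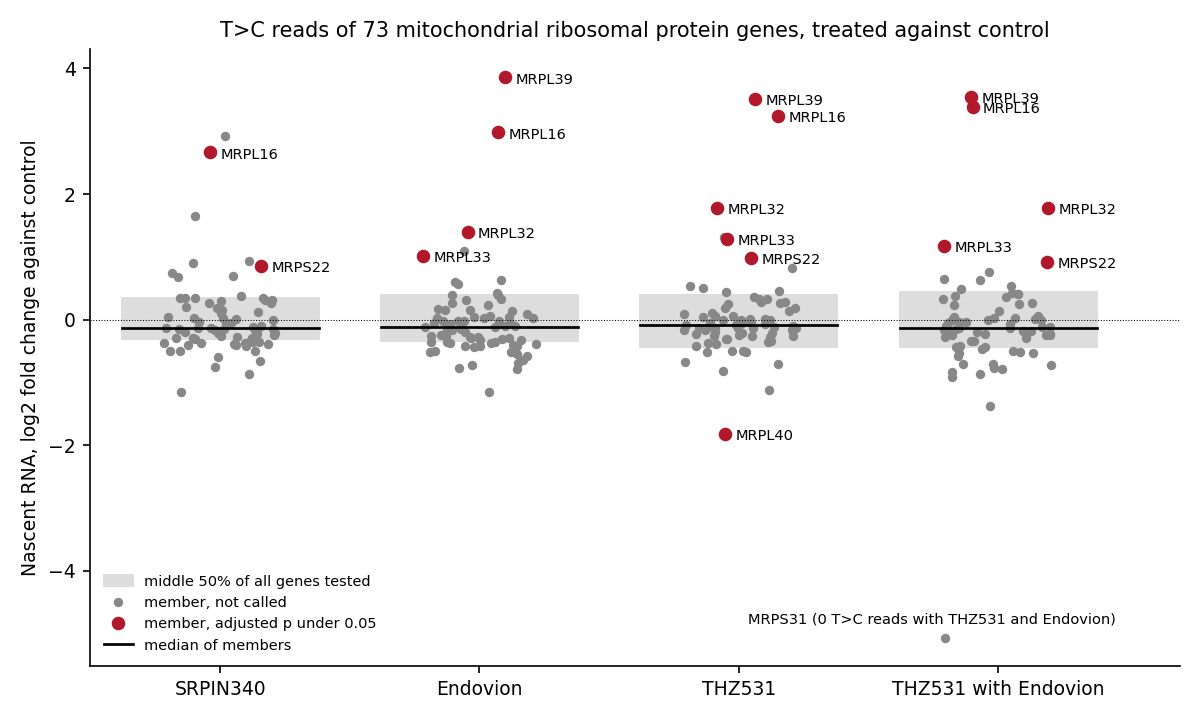
Nascent RNA: log2 fold change against control (vertical axis) of the 73 members for each of 4 treatments, with members past an adjusted p of 0.05 in red and named, the median of members as a black line and the middle 50% of all genes in grey. Most members lie in or near the grey band, and MRPL16 stands above it in all 4 treatments; the fitted value of MRPS31 with THZ531 and Endovion comes from 0 T>C reads and is no measure of size.

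MRPL16, a large-subunit protein with a bacterial counterpart, rose in all 4 comparisons. Its T>C reads were 11 and 4 in the control libraries, 31 and 75 with SRPIN340, 50 and 49 with Endovion, 54 and 68 with THZ531, and 67 and 57 with THZ531 and Endovion. In T>C CPM, the controls were at 7.08 and 3.21 and the lowest treated library at 21.0, so no treated library overlapped them. Both controls lay under the low-count filter, which MRPL16 passed only through treated libraries. Its lack of overlap is therefore no separate support for the calls. The log2 fold change was 2.66 ± 0.48 (SE, n = 2 per group) with SRPIN340, 2.98 ± 0.48 with Endovion, 3.25 ± 0.48 with THZ531 and 3.39 ± 0.48 with THZ531 and Endovion, with adjusted p of 0.000789, 2.95e-05, 3.07e-06 and 8.46e-07 in edgeR's test. MRPL16 lies at chr11:59806140-59810778 on the minus strand (hg38), and 32.6% of the bases of its 212-base interval are G or C. Its total reads were 388 in control replicate 1 and 77 in control replicate 2, a 4.27-fold difference in CPM between replicates of 1 group.

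MRPL39, a large-subunit protein particular to mitochondria, was called with Endovion, THZ531 and THZ531 with Endovion. It had only 3 and 0 T>C reads in the controls, 4 and 23 with SRPIN340, 23 and 16 with Endovion, 6 and 23 with THZ531, and 14 and 15 with THZ531 and Endovion. No treated library fell to the control level in CPM, but the control count is near 0. MRPL39 also passed the low-count filter only through treated libraries, so this lack of overlap is no separate support for its calls. The summed T>C reads, relative to the T>C reads on genes, were 15.9 times the control with Endovion (95% exact binomial interval 5.06 to 80.4), 10.6 times with THZ531 (3.29 to 54.5) and 12.3 times with THZ531 and Endovion (3.81 to 63.0), and 8.64 times with SRPIN340 (2.66 to 44.5). These intervals cover counting error only. Adjusted p in edgeR's test was 0.0147, 0.0195 and 0.0163 for the first 3 of these and 0.186 for SRPIN340.

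MRPL32, a large-subunit protein that is cut to its mature form inside mitochondria by the m-AAA protease, was called in the same 3 comparisons. Its T>C reads were 41 and 12 in the controls, 28 and 80 with SRPIN340, 67 and 48 with Endovion, 83 and 73 with THZ531, and 82 and 58 with THZ531 and Endovion. In CPM SRPIN340 replicate 1 lay between the controls, and the libraries of the other treatments lay above both. The log2 fold change was 1.40 ± 0.40 with Endovion, 1.78 ± 0.39 with THZ531 and 1.77 ± 0.39 with THZ531 and Endovion (adjusted p 0.0394, 0.00177 and 0.00185 in edgeR's test).

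MRPL33, which also has a bacterial counterpart, had 151 and 46 T>C reads in the controls, 191 and 208 with SRPIN340, 188 and 137 with Endovion, 205 and 199 with THZ531, and 184 and 154 with THZ531 and Endovion. In CPM every treated library lay above both controls, and the controls themselves differed at 97.2 and 36.9. The log2 fold change was 1.02 ± 0.27 with Endovion, 1.29 ± 0.27 with THZ531 and 1.17 ± 0.27 with THZ531 and Endovion (adjusted p 0.0339, 0.00203 and 0.00536 in edgeR's test), and 0.93 ± 0.27 with SRPIN340 (0.105). MRPS22, a small-subunit protein particular to mitochondria, had 146 and 90 T>C reads in the controls, 212 and 254 with SRPIN340, 122 and 163 with Endovion, 230 and 180 with THZ531, and 195 and 153 with THZ531 and Endovion. In CPM Endovion replicate 1 lay within the range of the controls and the other treated libraries lay above it. Its log2 fold change was 0.86 ± 0.22 with SRPIN340, 0.99 ± 0.23 with THZ531 and 0.92 ± 0.23 with THZ531 and Endovion (adjusted p 0.0374, 0.00236 and 0.00542 in edgeR's test), and 0.57 ± 0.23 with Endovion (0.205). Its interval holds 6.25% G and C, and with a correction for base composition, added after the data had been seen, these 3 calls were lost (0.56, 0.64 and 0.56, adjusted p 0.251, 0.0509 and 0.095), as was that of MRPL32 with Endovion (1.20, 0.0784).

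MRPL40, a large-subunit protein whose gene lies in the region of chromosome 22 deleted in DiGeorge syndrome, was the only member called lower. It had 39 and 43 T>C reads in the controls, 21 and 20 with SRPIN340, 24 and 18 with Endovion, 13 and 8 with THZ531, and 14 and 20 with THZ531 and Endovion. In CPM every treated library lay below both controls. With THZ531 it fell by 1.82 on the log2 scale (SE 0.54, adjusted p 0.0263 in edgeR's test), and with the other treatments its log2 fold change was −1.15, −0.73 and −0.92 (adjusted p 0.381, 0.556 and 0.299). Its total reads differed little, with a log2 fold change of −0.18 ± 0.14 with THZ531 (adjusted p 0.343).

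**Figure D3:**
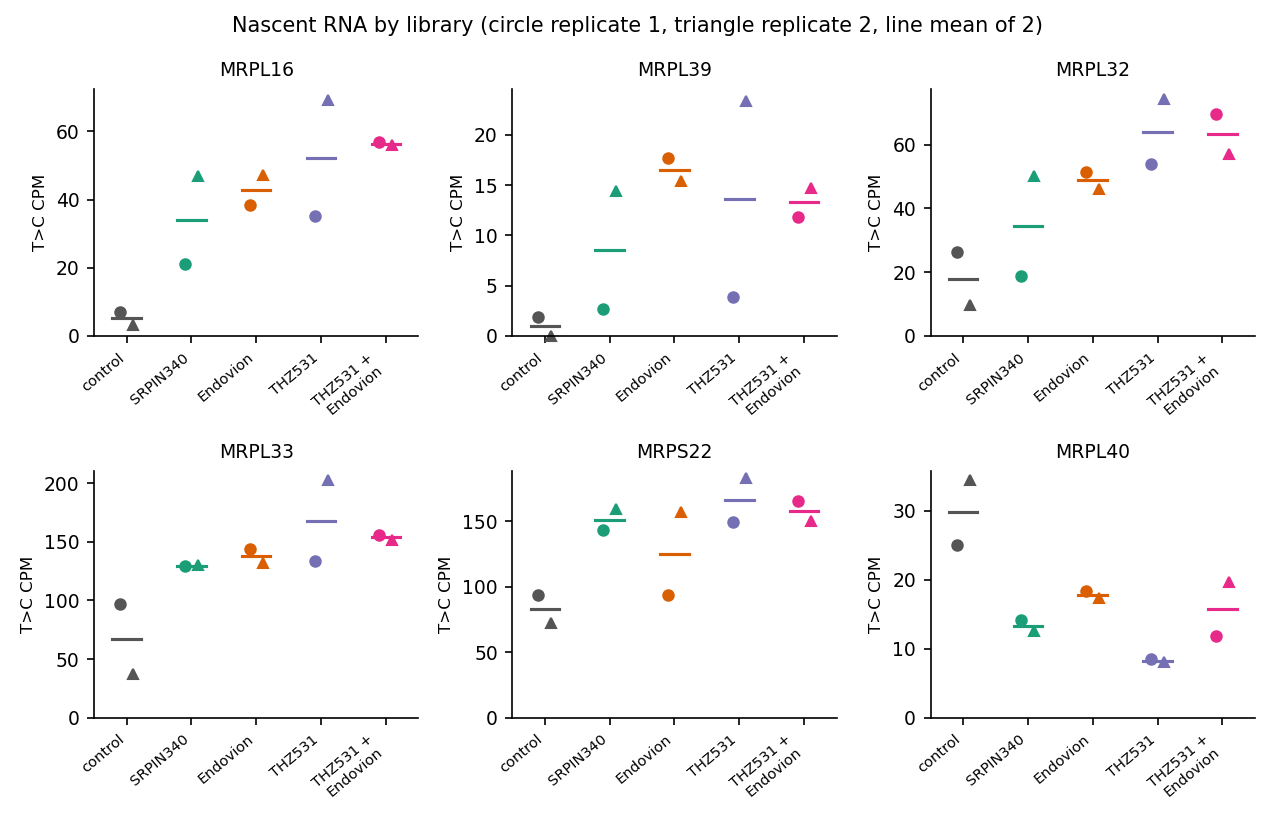
Nascent RNA in every library for the 6 called members, as T>C CPM (vertical axis, from 0), with circles for replicate 1, triangles for replicate 2 and a line at the mean of 2. MRPL16 is at 7.08 and 3.21 in the controls and at 21.0 or more in treated libraries, control replicate 2 is below control replicate 1 for the 5 members that rose, and MRPL40 is highest in the controls.

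These calls depended on single libraries. Without control replicate 2, the called members numbered 0 with SRPIN340 and 1 with each of the other treatments, and without control replicate 1 they numbered 4 with SRPIN340. They also numbered 1 and 0 with SRPIN340 without SRPIN340 replicate 1 and replicate 2, 1 with Endovion without either Endovion library and 2 without replicate 1 of THZ531 with Endovion, 1 with THZ531 without THZ531 replicate 2, and 1 with THZ531 and Endovion without its replicate 1. MRPL16 kept its call whichever library was left out with Endovion, THZ531 and THZ531 with Endovion. When T>C reads were scaled by the normalised total of all reads, the split with THZ531 and Endovion was 5 higher and 4 lower.

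Other members at the ends of the range did not pass the test. With SRPIN340 the lowest after MRPL40 were MRPS11 at −0.87 and MRPL27 at −0.75, and MRPL39 at 2.93 and MRPS31 at 1.65 were among the highest. MRPL39 and MRPS31 passed the low-count filter only through treated libraries, and MRPS31 had its highest level with SRPIN340. Their places among the highest are therefore no separate support for a rise. With Endovion the lowest were MRPS11 at −1.16, MRPL22 at −0.78 and MRPL28 at −0.77, and with THZ531, after MRPL40, MRPS11 at −1.12 and MRPL38 at −0.82. With THZ531 and Endovion, MRPL46 was at −1.37 and MRPL40 at −0.92. MRPS31 had 7 and 2 T>C reads in the controls and 0 in both libraries with THZ531 and Endovion, where a count of 0 allows up to 2.54 and 2.95 T>C CPM. Its control libraries were at 4.51 and 1.605 T>C CPM, and its adjusted p was 0.152 in edgeR's test.

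The promoters of 4 called members are printed to show a feature that many members shared at their start sites. RefSeq windows from 250 bases before to 50 after the start site (GRCh38.p14) matched 69 of the 78 members. The letters CCGGAAG, a core bound by ETS factors such as GABPA, which is known for its sites at genes of mitochondrial function, stood on either strand in 30 of 69 windows, or 43.5%, against 17.0% of 14977 protein-coding genes and 12.2% of all 27305 genes with a window. The E-box CACGTG stood in 13.04% of member windows against 11.1% and 8.77%, and the NRF1 motif in 13.04% against 9.94% and 6.98%. The capitals below mark the ETS letters in each window, on the gene's strand or as the other strand's CTTCCGG.
MRPL16, chr11:59810729-59811028, minus strand: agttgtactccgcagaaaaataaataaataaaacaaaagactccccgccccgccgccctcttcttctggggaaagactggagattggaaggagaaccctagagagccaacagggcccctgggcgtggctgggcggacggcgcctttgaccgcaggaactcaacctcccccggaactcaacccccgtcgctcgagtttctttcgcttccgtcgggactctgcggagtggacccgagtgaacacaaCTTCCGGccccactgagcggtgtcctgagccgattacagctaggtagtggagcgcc
MRPL33, chr2:27771469-27771768, plus strand: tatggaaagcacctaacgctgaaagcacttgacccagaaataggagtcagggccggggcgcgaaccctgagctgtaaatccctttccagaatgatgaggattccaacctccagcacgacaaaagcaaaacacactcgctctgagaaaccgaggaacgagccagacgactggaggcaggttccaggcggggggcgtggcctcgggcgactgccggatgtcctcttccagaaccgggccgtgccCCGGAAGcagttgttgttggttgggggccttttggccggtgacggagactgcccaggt
MRPL40, chr22:19432295-19432594, plus strand: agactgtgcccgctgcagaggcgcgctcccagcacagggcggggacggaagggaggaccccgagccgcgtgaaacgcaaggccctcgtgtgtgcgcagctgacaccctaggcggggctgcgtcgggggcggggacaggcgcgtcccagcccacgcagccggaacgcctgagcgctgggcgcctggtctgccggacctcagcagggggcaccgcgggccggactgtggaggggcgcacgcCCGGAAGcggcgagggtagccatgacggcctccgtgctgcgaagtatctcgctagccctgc
MRPS12, chr19:38930694-38930993, plus strand: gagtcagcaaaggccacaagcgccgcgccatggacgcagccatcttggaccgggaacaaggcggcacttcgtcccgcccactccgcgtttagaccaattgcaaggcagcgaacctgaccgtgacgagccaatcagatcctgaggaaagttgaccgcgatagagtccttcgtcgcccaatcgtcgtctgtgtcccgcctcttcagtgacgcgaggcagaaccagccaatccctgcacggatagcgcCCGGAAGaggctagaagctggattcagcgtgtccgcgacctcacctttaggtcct
The letters stood in the windows of MRPL16 and MRPL33, which were called higher. They also stood in those of MRPL40, called lower in nascent RNA, and MRPS12, called lower in total RNA only. Of the other members called higher in nascent RNA, MRPS22 had a match and MRPL32 and MRPL39 had none. With THZ531, 3 of 30 members with a match were called higher and 1 lower in nascent RNA, against 2 higher and 0 lower of 37 tested members without one, beside 3.86% and 3.6% over all genes, and the median log2 fold change was −0.13 and 0.01. In total RNA the same counts were 5 higher and 7 lower of 30 and 6 higher and 4 lower of 38, beside 16.6% and 14.1% over all genes, with medians of −0.16 and −0.00. The windows of these 4 genes were rich in G and C (59.0%, 59.3%, 73.7% and 60.3%), whereas their 3′ intervals held 32.6%, 35.9%, 43.4% and 54.3%.

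What Endovion added on top of THZ531 was asked by setting THZ531 with Endovion against THZ531 alone. This contrast holds the effect of Endovion itself, so it does not test a changed response to THZ531, which the interaction below asks. None of 73 members was called by edgeR's test (background 0.322% in either direction), 0 by DESeq2, and at an unadjusted p under 0.05 there were 0 higher and 3 lower. The highest were MRPL40 at a log2 fold change of 0.91, MRPS5 at 0.68 and MRPS18C at 0.51, and the lowest with T>C reads in every library were MRPL46 at −1.12 and MRPL14 at −0.83. Endovion and SRPIN340, both used against SRPK1, were also compared directly. Again 0 members were called by either tool (background 0.0603%), with 1 higher and 2 lower at an unadjusted p under 0.05. MRPL39 and MRPS31, named next, passed the low-count filter only through treated libraries, MRPS31 with its highest level in SRPIN340. The log2 difference of Endovion over SRPIN340 was highest in MRPL39 at 0.93, MRPL38 at 0.74 and MRPL4 at 0.73, and lowest in MRPL28 at −1.44, MRPS31 at −1.02 and MRPS30 at −0.70. All adjusted p were 1 for these.

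The interaction asks whether the 2 agents together differ from the sum of their separate log2 changes. Only MRPL16 was called among members (background 0.302%), a gene that passed the low-count filter only through treated libraries. Its log2 changes of 3.25 with THZ531 and 2.98 with Endovion were followed by 3.39 with both, and the interaction was −2.84 ± 0.62 (adjusted p 0.0198 in edgeR's test). Without control replicate 2, either Endovion library, THZ531 replicate 2 or either library of THZ531 with Endovion, 0 members were called, and without control replicate 1 there were 3. MRPL39 was at −3.83 ± 1.26 (adjusted p 0.26), with a control level near 0, and MRPL40 at 1.63 ± 0.77 (0.598), MRPS11 at 1.44 (0.663) and MRPL28 at 1.17 (0.834) were the highest.

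Total RNA of more members passed the test, in both directions. Of 76 members, 1 rose and 0 fell with SRPIN340 (background over 14690 genes 1.82% higher and 0.143% lower), 3 rose and 8 fell with Endovion (8.9% and 2.53%), 12 rose and 12 fell with THZ531 (16.6% and 14.1%), and 12 rose and 14 fell with THZ531 and Endovion (16.6% and 12.4%). With SRPIN340, 15 members were lower at an unadjusted p under 0.05 and DESeq2 called 5 of them. In all, 15 members were called higher and 18 lower in at least 1 comparison. The share of all genes called in at least 1 comparison is not given here, so these 2 counts are no result about the members. The median log2 fold change of members was −0.14, −0.10, −0.04 and −0.14, against 0.03, 0.02, −0.01 and −0.00 over all genes.

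The direction of these changes followed the base composition of the counted interval. Members whose interval was under 35% G and C had a median log2 fold change of 0.28, 0.32, 0.62 and 0.54 in the 4 comparisons, those of 35% to 45% had −0.04, −0.07, −0.00 and −0.10, and those over 45% had −0.22, −0.26, −0.16 and −0.22. With THZ531, 8 of 16 members under 35% were called higher and 0 lower, 3 higher and 6 lower of 30 at 35% to 45%, and 1 higher and 6 lower of 30 over 45%. Over all genes of any composition 16.6% were called higher and 14.1% lower. The share over all genes of the same class is not given here, so the counts cannot be called particular to members. Across the 76 members, which share their libraries, Pearson's r between log2 fold change and G and C content was −0.55, −0.52, −0.57 and −0.55. Spearman's rho was −0.56, −0.56, −0.58 and −0.56. MRPL39 (7 and 2 control reads), MRPS36 (2 and 0) and MRPL45 (4 and 6) passed the low-count filter for total RNA only through treated libraries. MRPL39 and MRPS36 lie under 35%, so their rises are no separate support for this pattern. The values without them were not computed. Over all 14690 genes r was −0.24, −0.25, −0.18 and −0.23. Single libraries differed in the same way. Relative to each gene's mean over the 10 libraries, members under 35% stood at a median of −0.24 and −0.47 on the log2 scale in control replicates 1 and 2 and at −0.11 to 0.31 in treated libraries, and members over 45% stood at 0.11 and 0.22 in the controls and at −0.11 to 0.04 in treated ones. All genes under 35% stood at −0.13 and −0.27 in the controls. With a correction for it in each library, added after the data had been seen, the called members were 0 with SRPIN340, 2 higher and 5 lower with Endovion, 8 and 9 with THZ531 and 10 and 12 with THZ531 and Endovion. In the same fit 1.95%, 7.92%, 15.9% and 15.5% of all genes were called higher and 0.306%, 2.85%, 14.5% and 12.5% lower. After that correction r was still −0.37, −0.35, −0.40 and −0.36.

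**Figure D4:**
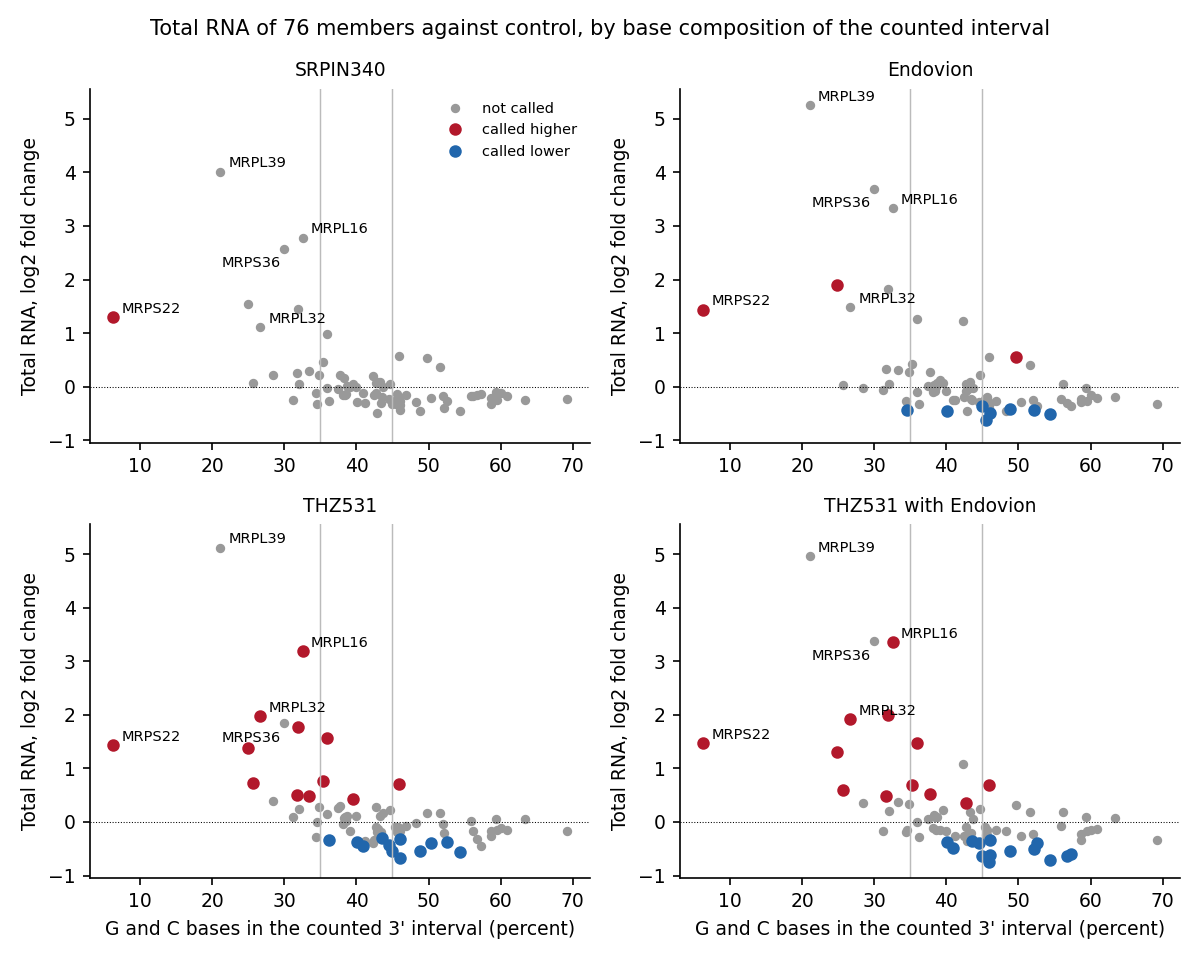
Total RNA: log2 fold change against control (vertical axis) of the 76 members against the percentage of G and C bases in the counted 3′ interval (horizontal axis), in 1 panel per treatment, with called members in red (higher) or blue (lower) and grey lines at 35% and 45%. Members under 35% reach the largest rises and called falls lie mostly over 40%, with r between −0.52 and −0.57 in the 4 panels. MRPL39 and MRPS36, which are under 35%, passed the low-count filter only through treated libraries.

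Among members higher in total RNA, MRPS22 passed in all 4 comparisons. It had 539 and 251 reads in the controls, 814 and 1346 with SRPIN340, 948 and 907 with Endovion, 973 and 842 with THZ531, and 931 and 811 with THZ531 and Endovion. Every treated library lay above both controls in CPM. The log2 fold change was 1.29 ± 0.26, 1.44 ± 0.27, 1.44 ± 0.27 and 1.48 ± 0.27 (adjusted p 0.0424, 0.00953, 0.00285 and 0.00265 in edgeR's test). Its interval is only 32 bases long with 6.25% G and C, and after the correction for base composition the log2 fold change was 0.51 with THZ531 and 0.52 with THZ531 and Endovion (adjusted p 0.0235 and 0.0226), while 0.54 with SRPIN340 and 0.51 with Endovion did not pass (0.0795 and 0.05001). MRPS31, a small-subunit protein, rose by 1.90 ± 0.40 with Endovion, 1.376 ± 0.40 with THZ531 and 1.31 ± 0.40 with THZ531 and Endovion, from 56 and 19 reads in the controls to 59 to 158 in treated libraries. MRPL39 and MRPS36 had larger fitted values that were not called in edgeR's test. MRPL39 had 7 and 2 reads in the controls and 24 to 234 in treated libraries (adjusted p 0.252, 0.0875, 0.0547 and 0.0625). MRPS36 had 2 and 0 against 2 to 16 (0.279, 0.0576, 0.339 and 0.0507). Both passed the low-count filter for total RNA only through treated libraries.

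MRPS30, which is named as a small-subunit gene but belongs to the large subunit, rose with THZ531 and with THZ531 and Endovion. It was at 38.9 and 40.1 CPM in the controls, 41.7 and 40.9 with SRPIN340, 36.1 and 45.1 with Endovion, 64.4 and 66.5 with THZ531, and 58.5 and 61.1 with THZ531 and Endovion. The control, SRPIN340 and Endovion libraries overlapped and the 4 libraries with THZ531 lay above them all. The log2 fold change was 0.73 ± 0.13 with THZ531 and 0.60 ± 0.13 with THZ531 and Endovion (adjusted p 0.00083 and 0.00337 in edgeR's test), against 0.06 and 0.04 with SRPIN340 and Endovion (0.836 and 0.888). With 25.6% G and C in its interval, its call was lost on correction for base composition, at 0.26 (adjusted p 0.175) and 0.09 (0.689). MRPL19, MRPL3 and MRPL34, large-subunit proteins with bacterial counterparts, rose by 0.76 ± 0.18, 0.51 ± 0.14 and 0.71 ± 0.19 with THZ531 and by 0.69 ± 0.18, 0.49 ± 0.14 and 0.69 ± 0.19 with THZ531 and Endovion. MRPL16, MRPL32, MRPL33 and MRPL13 rose by 3.20 ± 0.80, 1.98 ± 0.51, 1.58 ± 0.40 and 1.78 ± 0.52 with THZ531, and by 3.36, 1.91, 1.47 and 1.996 with THZ531 and Endovion. Their libraries differed within groups. In the same order, the THZ531 libraries were at 49.7 and 109.4, 71.4 and 125.7, 78.6 and 148.8, and 38.6 and 91.7 CPM. The controls were at 13.8 and 3.24, 34.8 and 14.8, 49.2 and 26.8, and 21.0 and 16.7 CPM. MRPS9 rose by 0.52 ± 0.13 with THZ531 and Endovion, MRPL50 by 0.48 ± 0.17 and MRPL44, which holds a fold like that of ribonuclease III, by 0.44 ± 0.15 with THZ531, and MRPL10 by 0.56 ± 0.17 with Endovion. MRPL30, counted at a shared interval, rose by 0.35 ± 0.12 with THZ531 and Endovion. On correction for base composition MRPL3 and MRPS31 lost their calls with THZ531 and with THZ531 and Endovion, and MRPL13 and MRPL50 with THZ531.

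Among members lower in total RNA was MRPL57, a large-subunit protein particular to mitochondria. It had 3945 and 3529 reads in the controls, 3070 and 3633 with SRPIN340, 3048 and 2171 with Endovion, 2891 and 1725 with THZ531, and 2096 and 1790 with THZ531 and Endovion. In CPM the controls were at 140.6 and 148.5 and treated libraries at 91.9 to 116.6, so they did not overlap. The log2 fold change was −0.37 ± 0.11 with Endovion, −0.54 ± 0.11 with THZ531 and −0.64 ± 0.11 with THZ531 and Endovion (adjusted p 0.0429, 0.00218 and 0.000715 in edgeR's test). MRPS12, the counterpart of a protein of the bacterial decoding centre, was at 98.8 and 122.5 CPM in the controls and at 60.1 to 85.3 in treated libraries. It fell by 0.51, 0.55 and 0.72 on the log2 scale (SE 0.15 each) in the same 3 comparisons, and its nascent log2 fold change was −0.70, −0.68 and −0.72 with adjusted p of 0.119, 0.0678 and 0.0517.

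MRPS11 and MRPL20, both with bacterial counterparts, also fell in these 3 comparisons. MRPS11 was at 46.2 and 45.3 CPM in the controls and at 30.4 to 35.4 in treated libraries, and MRPL20 at 187.7 and 192.4 against 132.4 to 161.5. Neither gene's treated libraries reached its controls. MRPL20 fell by 0.45 with Endovion, 0.38 with THZ531 and 0.37 with THZ531 and Endovion (SE 0.10 each), and MRPS11 by 0.42, 0.54 and 0.55 (SE 0.13 each). On correction for base composition MRPL57 and MRPL20 kept all 3 calls, and MRPS11 and MRPS12 lost theirs with Endovion (adjusted p 0.113 and 0.129). With Endovion MRPS25, MRPS26, MRPL21 and MRPS17 fell by 0.62, 0.43, 0.43 and 0.48. With THZ531 MRPL46, MRPS33, MRPL58, MRPL52, MRPS16 and MRPS21 fell by 0.67, 0.45, 0.43, 0.39, 0.31 and 0.32, and MRPL58 is the member that acts as a release factor on stalled ribosomes. With THZ531 and Endovion MRPS26, MRPS17, MRPL46, MRPL55, MRPS33, MRPS18A and MRPS16 fell by 0.50, 0.61, 0.74, 0.64, 0.48, 0.61 and 0.36. MRPS17 and MRPL46 are counted at intervals shared with another gene.

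The calls in total RNA also depended on single libraries. Without control replicate 2 the called members numbered 0, 1, 6 and 10 in the 4 comparisons, and without control replicate 1 they numbered 11 with SRPIN340 and 22 with Endovion. Leaving out a library of the treated group gave 0 with SRPIN340 (its replicate 2), 3 and 2 with Endovion (replicates 1 and 2), 7 with THZ531 (replicate 2), and 13 with THZ531 and Endovion for either library. Leaving out libraries of other groups moved the counts too, and the cause was not tested. The SRPIN340 count was 0 without either Endovion library or either library of THZ531 with Endovion. It was 3 and 5 without THZ531 replicates 1 and 2. The Endovion count was 7 without either SRPIN340 library and 18 without either THZ531 library.

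The members were also counted by symbol, origin and gene length. The symbol is not always the subunit, since MRPS30, of the large subunit, and MRPS36 stand among the MRPS genes. In total RNA with THZ531, 9 of 48 MRPL genes were called higher and 7 lower, against 3 and 5 of 28 MRPS genes, beside 16.6% higher and 14.1% lower over all genes. Members with a bacterial counterpart had 7 called higher and 7 lower of 44, and members particular to mitochondria 5 and 5 of 30, with medians of 0.01 and −0.08. Members spanning under 10 kb had 1 called higher and 8 lower of 34, those of 10 to 30 kb 5 and 4 of 24, and those over 30 kb 6 and 0 of 18. The medians over these 3 classes were −0.17, 0.10 and 0.19, while in nascent RNA they were −0.13, −0.06 and −0.02. The 6 called higher over 30 kb were MRPL3, MRPL13, MRPL19, MRPL33, MRPS22 and MRPS31, whose intervals hold at most 35.9% G and C. The parts of span and base composition in these counts were not tested.

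The labelled share asks whether nascent and total RNA changed by unequal amounts. MRPL13, a large-subunit protein with a bacterial counterpart, was called lower in all 4 comparisons, and MRPS22 with Endovion. That is 1, 2, 1 and 1 of 73 members, against a background of 0.131%, 0.362%, 0.221% and 0.774% lower over all genes, and 0 members were called higher. The labelled share of MRPL13 was 19.4% and 27.7% in the controls, 10.3% and 6.87% with SRPIN340, 6.26% and 6.84% with Endovion, 8.405% and 5.08% with THZ531, and 5.85% and 6.51% with THZ531 and Endovion. No treated library overlapped the controls. The log2 change of the share was −1.64, −1.94, −2.02 and −2.05 (SE 0.29 each, adjusted p 0.00408, 0.000272, 0.000134 and 8.54e-05 in edgeR's test).

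For MRPL13 the T>C reads differed little from control while total reads were higher. It had 114 and 110 T>C reads of 589 and 397 reads in the controls, and 87 to 151 T>C reads of 903 to 2197 reads in treated libraries. Its nascent log2 fold change was −0.03, 0.09, −0.17 and 0.14 (adjusted p 0.989, 0.931, 0.795 and 0.82), and its total log2 fold change 1.46, 1.81, 1.78 and 1.996 (0.214, 0.084, 0.0495 and 0.037). Conversions counted inside its 257-base interval were fewer than its T>C reads, 25 and 15 in the controls and 46 to 68 in treated libraries, so no more than that many of its T>C reads can have had a counted change inside the interval. Conversions were fewer than T>C reads in 28 of the 73 members, MRPS15 with 36 conversions to 106 T>C reads over all libraries being the lowest. With conversions set against covered T positions in place of T>C reads, the log2 change of MRPL13 was between −0.18 and 0.12 and was not called (adjusted p 0.928 or higher). Without control replicate 2 or SRPIN340 replicate 2 the call with SRPIN340 was lost, and without THZ531 replicate 2 that with THZ531. Without control replicate 1, 2 members were called with THZ531 and Endovion.

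MRPS22 had a labelled share of 27.1% and 35.9% in the controls, 26.0% and 18.9% with SRPIN340, 12.9% and 17.97% with Endovion, 23.6% and 21.4% with THZ531, and 20.9% and 18.9% with THZ531 and Endovion. Treated libraries all lay below both controls. The log2 change was −1.13 ± 0.27 with Endovion (adjusted p 0.0488 in edgeR's test) and between −0.53 and −0.70 in the others (0.258 to 0.594). The call with Endovion was lost without 8 of the 10 libraries left out singly, where MRPL13 alone was called. MRPL18, the member richest in T>C reads, had a share of 14.9% and 19.8% in the controls and 11.6% to 14.6% in treated libraries, which all lay below both controls, and was not called (log2 change −0.32 to −0.42, adjusted p 0.243 to 0.549 in edgeR's test). MRPL41 had 11.2% to 15.0% over the 10 libraries.

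**Figure D5:**
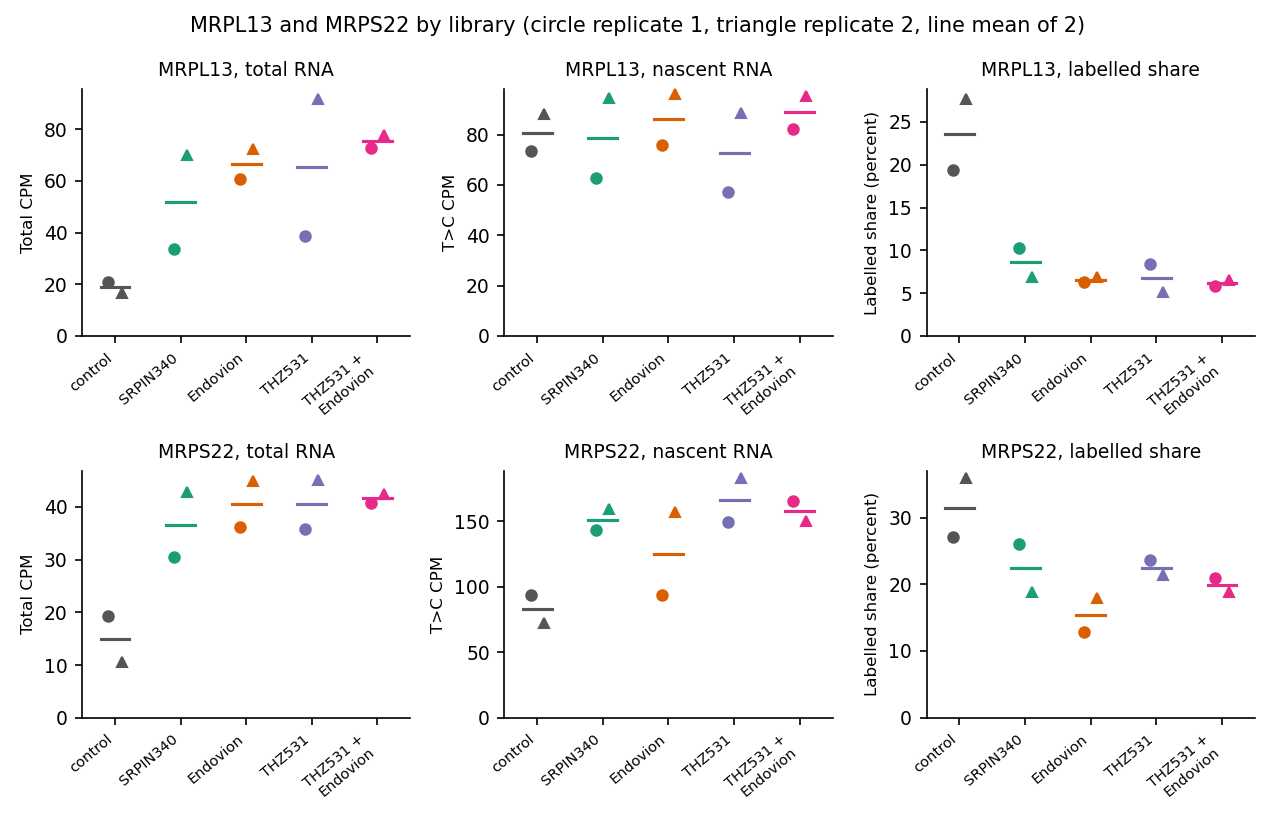
MRPL13 (top) and MRPS22 (bottom) in every library, as total CPM, T>C CPM and labelled share in percent (vertical axes from 0), with circles for replicate 1, triangles for replicate 2 and a line at the mean of 2. The share of MRPL13 is 19.4% and 27.7% in the controls and at most 10.3% in treated libraries, where its total reads are higher and its T>C reads are not.

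Several further members, listed for their roles, did not pass the test in nascent RNA. MRPL12, which besides its place in the stalk is reported to bind the mitochondrial RNA polymerase, had nascent log2 fold changes of 0.27, −0.02, −0.13 and −0.13 (SE 0.51 to 0.54) on 33 and 17 T>C reads in the controls. MRPL41 had −0.25, −0.32, −0.24 and −0.30 (SE 0.17 each, adjusted p 0.3 to 0.644), and MRPL44 −0.39, −0.15, −0.11 and −0.27. MRPL58 had −0.36, 0.15, −0.12 and −0.17, MRPS16 −0.36, −0.44, −0.09 and −0.15, and MRPS30 0.12, −0.59, 0.53 and 0.53. Of the 3 paralogs MRPS18A, MRPS18B and MRPS18C, MRPS18A was at 38.6 and 42.9 total CPM in the controls and MRPS18C at 63.0 and 69.7, and their nascent log2 fold changes with THZ531 were −0.51 ± 0.60 and −0.52 ± 0.28.

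Other genes of mitochondrial translation were counted from lists of known members. In nascent RNA the share called over all genes was 0.845% higher and 0.191% lower with SRPIN340 and 2.04% and 0.623% with Endovion. It was 3.86% and 3.6% with THZ531 and 4.61% and 3.49% with THZ531 and Endovion. Of 5 further mitoribosome proteins, DAP3, a small-subunit GTPase, rose in nascent RNA with THZ531 and Endovion by 1.04 ± 0.34 (adjusted p 0.0445 in edgeR's test), and in total RNA with Endovion, THZ531 and both by 0.76, 0.67 and 0.68. Of 9 translation factors tested in nascent RNA, the elongation factor TSFM rose with Endovion by 1.15 ± 0.31 and with THZ531 and Endovion by 1.05 ± 0.31, and MTRFR, a release factor for stalled ribosomes, fell by 1.81 ± 0.39 with THZ531. Of 19 assembly factors, the helicase DDX28 fell by 2.54 ± 0.54 with THZ531 and 2.21 ± 0.54 with THZ531 and Endovion, the methyltransferase MRM3 fell by 1.59 ± 0.43 with THZ531, and METTL17 rose by 2.44 ± 0.63 with Endovion and 2.07 ± 0.64 with THZ531. Of 4 genes of mitochondrial transcription, TFB2M rose with Endovion, THZ531 and both by 3.72 ± 0.85, 3.16 ± 0.87 and 2.72 ± 0.89. Adjusted p was 0.00415, 0.0137 and 0.0443 in edgeR's test. The SE of TFB2M and METTL17 are wide, and their reads by library are not given here. How near 0 their control levels lie therefore cannot be judged, and the size of these rises is uncertain. TFAM rose by 0.95 ± 0.28 with THZ531 and Endovion. Of 8 nuclear regulators of such genes, MYC rose by 0.84 ± 0.23, 1.53 ± 0.22 and 0.87 ± 0.23 with SRPIN340, THZ531, and THZ531 with Endovion. With Endovion alone MYC was at 0.76 ± 0.23, just short of a call (adjusted p 0.0563 in edgeR's test). In total RNA with THZ531, 1 of the 5 mitoribosome proteins was called higher and 0 lower, 3 and 3 of 11 translation factors, 2 and 4 of 21 assembly factors, 2 and 0 of 5 transcription genes and 2 and 0 of 8 regulators. Over all genes 16.6% were called higher and 14.1% lower, and on lists this short the counts are no result about them. GABPA, a subunit of an ETS factor, was among the regulators called higher, at 0.78 ± 0.19.

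Genes of neighbouring families were counted in the same fits, and the difference from the members was not tested. In nascent RNA 0.845% of all genes were called higher and 0.191% lower with SRPIN340, and 2.04% and 0.623% with Endovion. With THZ531 the shares were 3.86% and 3.6%, and with THZ531 and Endovion 4.61% and 3.49%. In total RNA with THZ531 they were 16.6% and 14.1%. Cytosolic ribosomal protein genes had 0 called higher or lower of 75 tested in nascent RNA with SRPIN340, Endovion or THZ531 and 2 higher and 1 lower with THZ531 and Endovion, with 5, 8 and 7 past an unadjusted p of 0.05 in the first 3. Nuclear genes of respiratory chain subunits had 1 higher and 0 lower, 2 and 2, 3 and 3, and 3 and 2 of 78. In total RNA with THZ531 the counts were 3 higher and 0 lower of 83 cytosolic and 6 higher and 2 lower of 80 respiratory chain genes. The median log2 fold changes were −0.04 and −0.03, beside −0.04 for the members. With SRPIN340 they were −0.07 and −0.16, beside −0.14 for the members, and with Endovion −0.06 and −0.14, beside −0.10. With THZ531 and Endovion they were −0.02 and −0.01, beside −0.14.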

How the data were processed

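Libraries of alkylated RNA from 22RV1 cells were made with a QuantSeq 3′ mRNA kit and read single-end. Per the study's methods, the authors mapped reads and called conversions with SLAM-DUNK and deposited 1 table per library with a line per 3′ interval. The columns used hold counts (reads, T>C reads, covered T positions, conversions), deposited without normalization. The deposited conversion rate is a fraction, the deposited read number scaled to mapped reads was taken as a score, and neither was tested. The submitters' processing notes name hg38, Bowtie2 2.3.4.1, SAMtools 1.6 and DESeq2 1.38.2. Whether molecular identifiers were collapsed, and whether counting used strand, is not given in the sources used here. 

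Intervals were matched to GENCODE v44 by transcript (92910 of 96427 on main chromosomes), and of overlapping intervals the best-covered was kept, since 48.8% of T>C reads in a plain sum were counted again, and 3.57% of T>C reads were unmatched. T content equalled hg38 at all 57587 kept intervals. Gene counts were tested with edgeR 4.0.16 (R 4.3.3; filterByExpr, TMM, robust quasi-likelihood, 5 group means, all 10 libraries, 5 residual degrees of freedom) with Benjamini-Hochberg adjustment over all genes, and the labelled share was the interaction of treatment and read class with library as a block. The steps were tested on simulated data. Alternatives included DESeq2 1.42.0, other scalings and filters, other interval rules, single libraries left out, and a loess correction for G and C content (span 0.5, added after seeing the data). Genes were named if called (10 smallest p per direction), among the 3 highest or lowest log2 changes, control T>C reads or labelled shares, or on a fixed list of 12. Members and lists were chosen with earlier results of these data known.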

Additional observations from a re-analysis of the deposited data

Results flagged for a closer look

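The interaction of THZ531 and Endovion on nascent MRPL16 was −2.84 ± 0.62 (SE, log2 scale, adjusted p 0.0198 in edgeR's quasi-likelihood test), a difference between the effect of Endovion alone and its effect on top of THZ531. MRPL16 had 11 and 4 T>C reads in the controls, 50 and 49 with Endovion, 54 and 68 with THZ531 and 67 and 57 with both. The same 2 control libraries enter each term, and control replicate 2 had 77 total reads of MRPL16 against 388 in control replicate 1. MRPL16 passed the low-count filter for nascent RNA only through treated libraries.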

How the results depend on the processing

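Counts of called members are given in the order SRPIN340, Endovion, THZ531 and THZ531 with Endovion, all against control, and moved by over 1.5 times as follows. For nascent RNA (2, 4, 6 and 5 members), the plain sum of overlapping intervals gave 0, 0, 1 and 1, and 0 in place of 1 for the interaction. Scaling by all reads gave 1 with SRPIN340, 2 with Endovion and 9 with THZ531 and Endovion, DESeq2 gave 1 with SRPIN340 and 2 with Endovion, and a fit of only the groups compared gave 0 with SRPIN340 and 2 with Endovion. The GC correction, with or without the replicate block, gave 1 with SRPIN340. For total RNA (1, 11, 24 and 26), DESeq2 gave 10 with SRPIN340 and 22 with Endovion, the GC correction 0 and 7, and the groups compared alone 0 with SRPIN340 and 12 with THZ531. With SRPIN340 the plain sum, the replicate block, and the block with the GC correction gave 0, and no low-count filter gave 8. For the labelled share (1, 2, 1 and 1), the plain sum and conversions against covered T positions gave 0 in all 4 comparisons, no filter gave 2 with THZ531 and 2 with THZ531 and Endovion, and 1 scaling for both read classes or leaving out genes that share an interval gave 1 with Endovion. The share of MRPL13 with THZ531 and Endovion changed sign to 0.12 when conversions were used. The causes of these moves were not tested.

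Leaving out 1 library at a time gave 0 to 4, 1 to 5, 1 to 7 and 1 to 6 called members in nascent RNA, 0 to 11, 1 to 22, 6 to 26 and 10 to 31 in total RNA, and 0 to 1, 1 to 2, 0 to 1 and 1 to 2 in the labelled share. It gave 0 to 3 for the interaction and 0 throughout for the 2 direct comparisons. An arm left with 1 library was assumed to vary like the others.

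Deviations of libraries with the same replicate number correlated from −0.070 to 0.060 over 10 pairs of groups in nascent RNA and from −0.28 to 0.37 in total RNA, where 3 of 10 pairs were over 0.1, so the number was not taken to pair them. With the replicate block the called members were 2, 3, 6 and 7 in nascent RNA, 0, 10, 20 and 23 in total RNA and 1, 2, 1 and 1 in the share. Over all settings, single called members kept direction and call in 1314 cases, lost the call in 382 and reversed in 1. Members with few T>C reads in the controls, such as MRPL39 and MRPS31, limit what can be measured at this depth.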
